A study of Mus musculus with 11 samples.

Results

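The genes described here encode the ErbB receptors and their ligands: the receptors Egfr, Erbb2, Erbb3 and Erbb4, and the ligands Tgfa, Hbegf, Areg, Ereg, Btc and Nrg1. They were chosen by name, 10 in all, with earlier results of these data known. Of the 10, 9 had at least 1 probe set that the platform annotation used here assigned to them, among 18193 genes in the whole table. No probe set was assigned to Areg, so it is named only. The 9 genes were read by 20 probe sets, of which Egfr had 7, Tgfa 3, Hbegf, Btc and Erbb3 2 each, and the other four 1 each. Where a gene had several, the main probe set was the brightest by mean log2 over the 11 arrays.

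The samples were kidneys of mouse embryos, labelled embryonic day 17, from wild-type animals and from animals labelled Robo2 homozygous. The title series E17R2 held 3 wild-type and 3 homozygous arrays, the series R2E17 held 1 and 1, and the series R2NB held 3 homozygous arrays and no wild-type. The Robo2 allele, the strain, any pooling of animals and the meaning of the letters NB are not stated in these labels. Nothing in the labels says that replicates came from separate animals, so p-values speak only to the spread among these samples, and part of it may be technical. Some free-text labels spoke of human brain, against the organism and tissue labels. Of 12 genes of the collecting duct and ureteric bud, 11 lay above the median gene of the array on all 11 arrays, and of 8 brain genes 6 lay below it on all 11. Above it on all 11 were also 4 of 5 nephron progenitor, 3 of 4 podocyte and 4 of 8 proximal tubule genes. The same held for 3 of 8 thick ascending limb and distal tubule genes, 0 of 7 urothelium genes and 1 of the 8 brain genes. The share of all genes on 1 side of the median on all arrays was not counted.

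ErbB receptors are tyrosine kinases of the cell surface. Their ligands are made as membrane-bound precursors, are released by metalloproteases such as Adam17, and bring receptors together in pairs, after which the Ras and ERK cascade and the PI3 kinase branch are engaged. Erbb2 has no ligand of its own and acts as a partner, whereas Erbb3 has little kinase activity and signals through its partner. In the embryonic kidney, Egfr and its ligands are best known for the branching ureteric bud and the collecting duct, and Erbb4 and neuregulins for tubule growth and polarity.

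All values are log2 of the deposited RMA intensity. The R2E17 and R2NB arrays (the set of 5) had been normalized apart from the E17R2 arrays (the set of 6): median intensities were 47.1 to 53.4 in the first and 23.4 to 24.6 in the second. Genotypes were therefore compared only within a set. Robo2 itself read 3.13, 3.68 and 3.16 in E17R2 wild-type and 2.03, 2.37 and 2.33 in E17R2 homozygous arrays, 3.96 and 3.37 in the R2E17 wild-type and homozygous arrays, and 3.28, 3.86 and 3.99 in the R2NB arrays, 2 of which lay nearer to the wild-type than to the homozygous array. Which exons its probe set reads was not looked at here. Homozygous replicate 9 of E17R2 stood apart in smooth muscle genes, whose mean lay 3.11 above the mean of the set of 6, against -1.13 to -0.33 on the other 5 arrays. The R2E17 wild-type array had the largest 3′ minus 5′ log2 value of Gapdh, a sign of RNA quality, at 0.70 against -0.013 to 0.22 on the other 10 arrays.

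The first comparison was of genotypes. No ErbB gene reached 0.05 in limma after Benjamini-Hochberg adjustment over the 6 E17R2 arrays: 0 of 9 members, and 0 of 18193 genes (0.00%). At an unadjusted p of 0.05 there were 2 members, Tgfa and Nrg1, among 1019 genes (5.60%). The homozygous arrays all lay below the wild-type arrays for Tgfa and Erbb3 (2 of 9 members, against 7.24% of all genes) and all above them for Nrg1 and Egfr (2 of 9, against 5.05%). For Tgfa and Erbb3 the R2E17 homozygous array was lower too. Both conditions were met by 2.58% of all 18193 genes, that is by 469 of the 1318 genes with homozygous arrays lower. For Nrg1 and Egfr it was higher too, for Egfr by 0.06 only, and both conditions were met by 2.11% of all genes, that is by 384 of the 918 with homozygous arrays higher. Every R2E17 difference rests on the wild-type array that had the largest 3′ minus 5′ value of Gapdh. The part of RNA quality in these differences was not tested. A lower signal in whole kidney can come from fewer cells of a type or from less RNA per cell, which cannot be told apart here.

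**Figure D1:**
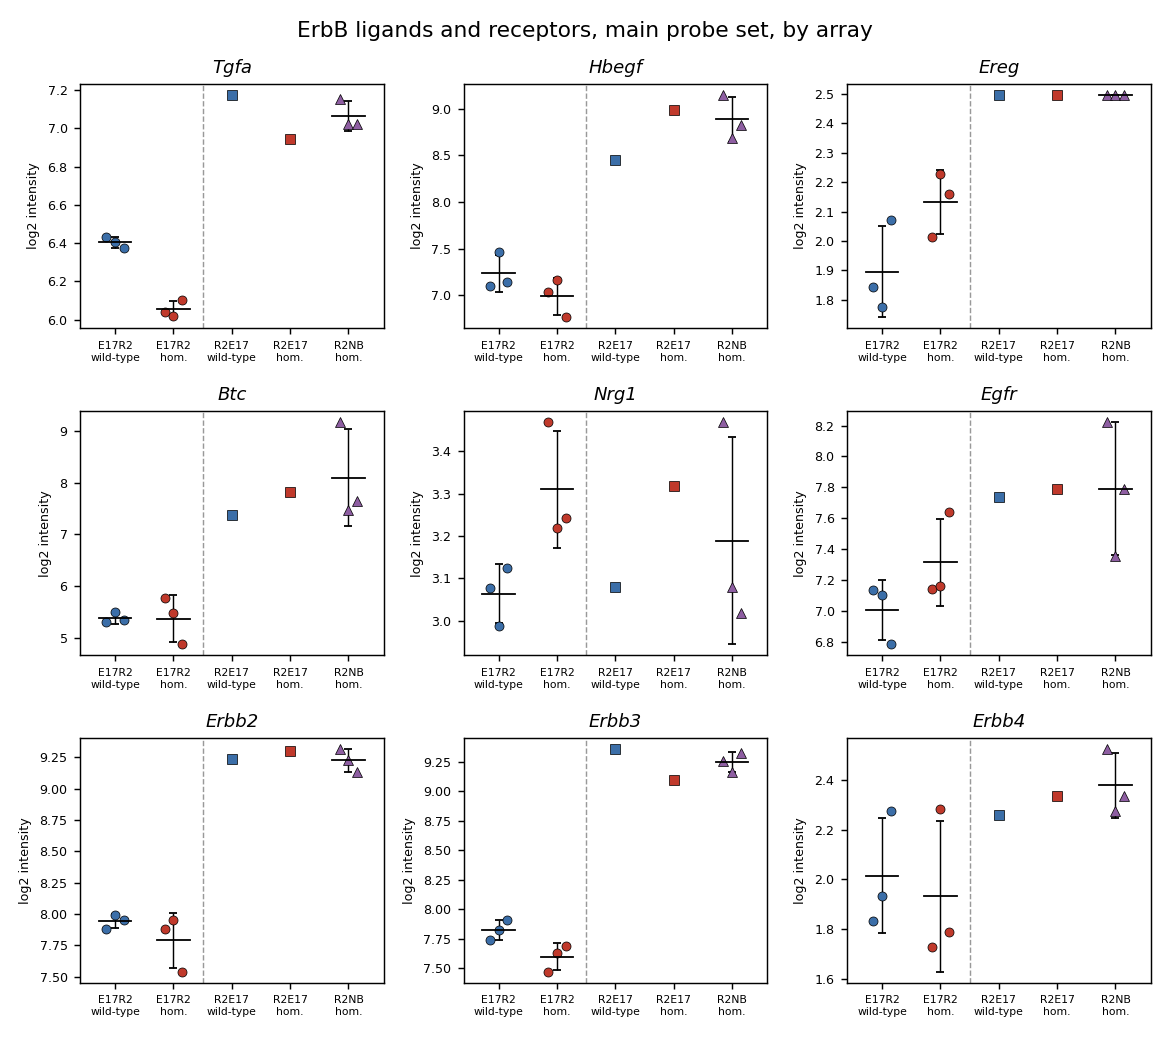
Log2 intensity (y axis) of the main probe set of each of the 9 measured ErbB genes on the 11 arrays, by title series and genotype (x axis; hom., Robo2 homozygous); horizontal lines are group means and bars are SD (n = 3), and the dashed line separates the sets normalized apart. The E17R2 homozygous arrays of Tgfa (6.02 to 6.10) all lie below the wild-type arrays (6.38 to 6.43), and the highest Btc point is R2NB replicate 3 (9.17).

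Tgfa encodes transforming growth factor alpha, a ligand of Egfr. Its main probe set, 1421943_at, read 6.43, 6.40 and 6.38 in E17R2 wild-type replicates 1, 3 and 7, and 6.04, 6.02 and 6.10 in homozygous replicates 2, 8 and 9. The groups did not overlap, and the spread within each was small: the wild-type mean was 6.40 ± 0.027 and the homozygous mean 6.05 ± 0.041 (SD, n = 3 each). The log2 difference was -0.35 ± 0.08 (SE), a ratio of 0.785, with a 95% interval of -0.53 to -0.17. Its unadjusted p was 0.00273, rank 45 of the 18193 genes, and its Benjamini-Hochberg adjusted p in limma was 0.840, so it did not pass. Since the members were chosen with earlier results of these data known, the unadjusted p, the rank and the interval are a description only. An exact permutation test of 3 against 3 arrays, 2-sided, gave 0.1, the smallest p this design allows. The R2E17 pair read 7.18 in wild-type and 6.95 in homozygous, a difference of -0.23. The fitted difference stayed between -0.37 and -0.33 when any 1 of the 6 arrays was left out, and was -0.37 without homozygous replicate 9.

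The other 2 Tgfa probe sets did not show this separation. The probe set 1421942_s_at, whose suffix marks possible hybridisation to related transcripts, read 5.14, 4.57 and 5.16 in E17R2 wild-type and 4.68, 4.85 and 4.97 in homozygous arrays, a difference of -0.12 ± 0.18 (SE). The wild-type values of that probe set straddled the homozygous ones. The third, 1450421_at, read 4.25, 4.22 and 4.41 in wild-type and 4.49, 4.46 and 4.33 in homozygous arrays, a difference of 0.13 ± 0.10 (SE). Its homozygous arrays tended to the higher side, opposite to the main probe set, with groups that overlapped. In the R2E17 pair the same probe sets differed by 0.06 and -0.16. With the mean of all 3 probe sets as the value of the gene, the E17R2 difference was -0.11, in place of -0.35.

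**Figure D2:**
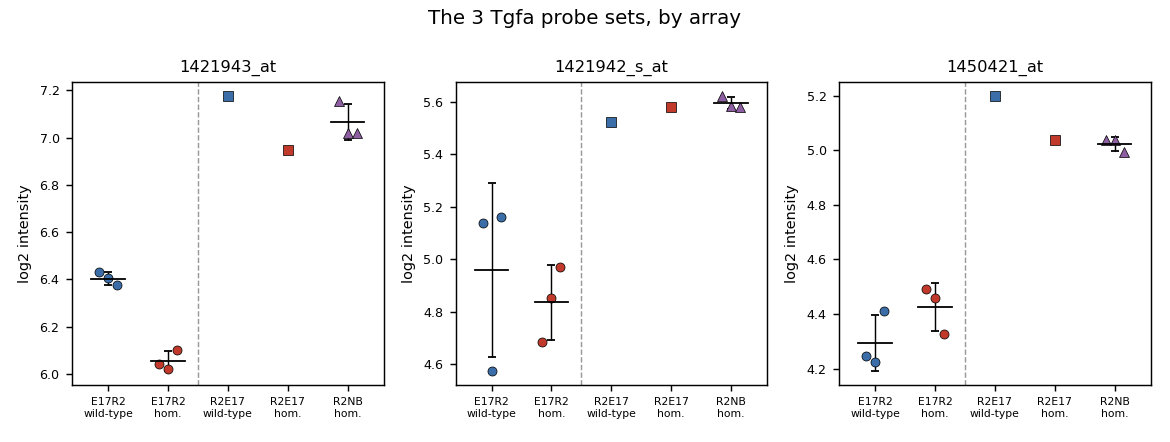
Log2 intensity (y axis) of the 3 Tgfa probe sets on the 11 arrays, by title series and genotype (x axis); horizontal lines are means and bars SD (n = 3), and the dashed line separates the sets normalized apart. Genotypes are apart in the E17R2 arrays for 1421943_at (difference -0.35) and overlap for 1421942_s_at (-0.12) and 1450421_at (0.13).

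Tgfa expression is known to be driven from a promoter rich in G and C. The 250 bases before its annotated start, shown because Tgfa had the smallest unadjusted p of the 9 members, come from RefSeq (GRCm38.p6, chr6:86194972-86195221, plus strand). Capitals mark the GC box GGGCGG on either strand, the letters that the Sp family of factors is known to bind.
Tgfa: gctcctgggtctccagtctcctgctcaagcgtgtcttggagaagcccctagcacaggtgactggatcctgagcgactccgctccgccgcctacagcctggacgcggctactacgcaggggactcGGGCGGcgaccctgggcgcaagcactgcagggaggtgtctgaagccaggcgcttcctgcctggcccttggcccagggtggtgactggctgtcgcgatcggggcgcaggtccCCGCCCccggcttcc
The window held 2 GC boxes, beginning 126 and 15 bases before the start, and its G and C content was 69.2%, against a median of 52.4% over 32851 windows of the same length. A GC box was present in 32.7% of all such windows, so this is a common feature. The window held 0 matches to the TATA box TATAAA (12.4% of all windows) and 0 to the AP-1 site TGANTCA (6.75%), both strands searched. Of the 10 members, 6 had a window in the RefSeq table. The Areg and Egfr windows had 1 GC box each, and those of Btc, Erbb2 and Erbb4 had 0.

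The 3 genes whose pattern over the 11 arrays was most like that of Tgfa, by the root mean square difference of log2 values centred on each set, were Kdm6b (0.075), Zfp612 (0.079) and Mansc1 (0.079). The median gene had 0.203, and a gene with no variation at all would have had 0.143. Kdm6b, a histone demethylase gene, read 9.24, 9.03 and 9.13 in E17R2 wild-type and 8.85, 8.87 and 8.99 in homozygous arrays. These genes were picked from all 18193 for their likeness, so the likeness is a description only.

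Hbegf encodes heparin-binding EGF-like growth factor, which binds Egfr and Erbb4. The 2 title series read it in opposite directions. Its main probe set read 7.10, 7.46 and 7.14 in E17R2 wild-type and 7.04, 7.16 and 6.76 in homozygous arrays, a difference of -0.25 ± 0.15 (SE; limma adjusted p = 0.840), and these groups overlapped. In the R2E17 pair it read 8.45 in wild-type and 8.98 in homozygous, a difference of 0.53, the farthest from 0 of the main probe sets of the 9 members in that pair. Of all genes, 11.7% differed by more than 0.5 in either direction in that pair, which is 1 array against 1. The test of the difference between the series gave -0.78 ± 0.32 (SE; unadjusted p = 0.0381, limma adjusted p = 0.417), so the series were not shown to differ. Of the 9 members 0 passed this test, as did 3 of all genes (0.0165%), and 1 member, Hbegf, was under an unadjusted p of 0.05, as were 11.1% of all genes. The second probe set had the same signs, -0.11 and 0.17. Homozygous replicate 9 was the lowest of the 6 E17R2 arrays, and without it the difference was -0.14. The R2E17 wild-type array, which had the highest 3′ minus 5′ value of Gapdh, was the lowest of the set of 5 for Hbegf, and the part of RNA quality in this was not tested.

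Btc encodes betacellulin, which also binds Egfr and Erbb4. In the E17R2 arrays it did not separate the genotypes, with 5.30, 5.50 and 5.35 in wild-type and 5.77, 5.49 and 4.88 in homozygous arrays, a difference of -0.01 ± 0.22 (SE; limma adjusted p = 0.997). The homozygous arrays lay on both sides of the wild-type ones, and without homozygous replicate 9, the lowest, the difference turned to 0.24. Homozygous minus wild-type in the R2E17 pair was 0.44 for the main Btc probe set and 1.29 for the second, dimmer one. In the set of 5, R2NB replicate 3 stood out for Btc: the main probe set read 9.17 there, against 7.47 and 7.64 in R2NB replicates 4 and 5, and 7.38 and 7.82 in the R2E17 wild-type and homozygous arrays. The second Btc probe set also had its highest value there, 5.08, against 3.22, 3.18, 2.77 and 4.06 in the same order. The main probe set exceeded the next highest array by 1.35, and 16 genes (0.0879%) did so by more than 1 on that array, against 0.940% on R2NB replicate 4 and 0.539% on R2NB replicate 5. Among these were the keratin genes Krt19, at 10.38 against 8.44 to 8.86 on the other 4 arrays, and Krt18, and this group was named after its values had been seen. Both keratin genes belong to the collecting duct and ureteric bud list, so they are counted in it too. Others of the 16, such as Ankrd1, Cnmd, Efemp1 and Cyp27b1, are not in that list. Of 12 collecting duct and ureteric bud genes, 10 were highest on that array, as were 25.8% of all genes, and the mean of that list lay 0.42 above the mean of the set, against -0.18 to -0.035 on the other 4 arrays. Whether the amount of collecting duct in the sample had a part in the Btc value was not tested.

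The 250 bases before the annotated start of Btc are shown for comparison with those of Tgfa, since Btc varied most between arrays of 1 set. They come from RefSeq (GRCm38.p6, chr5:91402995-91403244, minus strand), and hold no GC box, so no letter is capital.
Btc: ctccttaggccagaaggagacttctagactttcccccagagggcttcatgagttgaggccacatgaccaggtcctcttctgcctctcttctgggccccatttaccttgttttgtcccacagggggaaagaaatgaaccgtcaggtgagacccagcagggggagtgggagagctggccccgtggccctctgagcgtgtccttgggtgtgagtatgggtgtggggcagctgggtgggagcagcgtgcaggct
The G and C content of this window was 59.6%. In the RefSeq order of protein-coding genes on chromosome 5, Epgn, Ereg, Areg and Btc follow each other, so the ligand genes Ereg and Btc lie in 1 cluster with Areg between them.

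Ereg encodes epiregulin, a ligand of Egfr and Erbb4, and was near the lower end of every array. It lay between percentiles 0.302 and 3.29 of the 18193 genes over the 11 arrays. All 5 arrays of the set of 5 had the same value, 2.50, as did 177 genes (0.973%), which leaves no difference to measure there. Equal values on some arrays of that set also occurred for brighter members. Tgfa had the same value, 7.02, on R2NB replicates 4 and 5, and Egfr the same, 7.79, on the R2E17 homozygous array and R2NB replicate 5. For Nrg1 the R2E17 wild-type array and R2NB replicate 4 shared 3.08. The effect of such ties on the spreads in that set was not tested. In the E17R2 arrays it read 1.84, 1.77 and 2.07 in wild-type and 2.01, 2.23 and 2.16 in homozygous arrays (difference 0.24 ± 0.11, SE; limma adjusted p = 0.840), and the groups overlapped.

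Nrg1 encodes neuregulin 1, a ligand of Erbb3 and Erbb4, and was also dim, at percentiles 6.74 to 20.4. Its E17R2 values were 3.08, 2.99 and 3.13 in wild-type and 3.47, 3.22 and 3.24 in homozygous arrays, so the groups did not overlap. The difference was 0.25 ± 0.10 (SE), with a 95% interval of 0.0076 to 0.48, a p before adjustment of 0.0448 and a limma adjusted p of 0.840. The R2E17 pair read 3.08 and 3.32, a difference of 0.24 in the same direction. The R2NB arrays, all homozygous, read 3.47, 3.08 and 3.02, on both sides of these. Nrg1 has many transcript forms, and a single probe set read it here.

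Egfr, the receptor for most of these ligands, had 7 probe sets. The main one read 7.13, 7.10 and 6.79 in E17R2 wild-type and 7.15, 7.16 and 7.64 in homozygous arrays. The groups did not overlap, but homozygous replicates 2 and 8 were level with the 2 highest wild-type arrays, and homozygous replicate 9 was the only one well above. The difference was 0.31 ± 0.17 (SE; limma adjusted p = 0.840), and without homozygous replicate 9 it was 0.15. That array was also the one with high smooth muscle genes, and its urothelium genes lay 1.29 above the mean of the set, against -0.52 to 0.044 on the other 5. The part of these cells in the Egfr value was not tested. Over the 7 probe sets the E17R2 difference ran from -0.10 to 0.31, and 5 of the 7 were above 0. The R2E17 pair of the main probe set read 7.74 and 7.79.

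Erbb2, the receptor that acts as a partner of the others, varied little in wild-type: 7.88, 7.99 and 7.95 in E17R2 wild-type and 7.88, 7.95 and 7.54 in homozygous arrays. Homozygous replicate 9 was again the array apart, and the difference of -0.15 ± 0.12 (SE; limma adjusted p = 0.853) was -0.03 without it. In the set of 5, Erbb2 stayed within 9.13 and 9.31 on all 5 arrays.

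Erbb3, the receptor for neuregulins that relies on its partner's kinase, was lower in homozygous kidneys by its main probe set in both title series. It read 7.74, 7.82 and 7.90 in E17R2 wild-type and 7.47, 7.62 and 7.69 in homozygous arrays, with no overlap. It differed by -0.23 ± 0.10 (SE; p before adjustment 0.0521), with a limma adjusted p of 0.840. The R2E17 pair read 9.36 and 9.09, a difference of -0.26. Leaving out homozygous replicate 9 gave -0.27. The second, dimmer probe set read 3.25, 2.52 and 3.23 in wild-type and 2.94, 3.39 and 3.49 in homozygous arrays, a difference of 0.27 ± 0.23 (SE) of the opposite sign, and the mean of both probe sets gave 0.02.

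Erbb4, a receptor for neuregulins, Hbegf and Btc, was read by 1 probe set near the bottom of every array, at percentiles 0.143 to 4.12. Its E17R2 values were 1.83, 1.93 and 2.28 in wild-type and 1.73, 2.28 and 1.79 in homozygous arrays (difference -0.08 ± 0.18, SE). At such a level the array gives little information on whether the transcript was present.

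**Figure D3:**
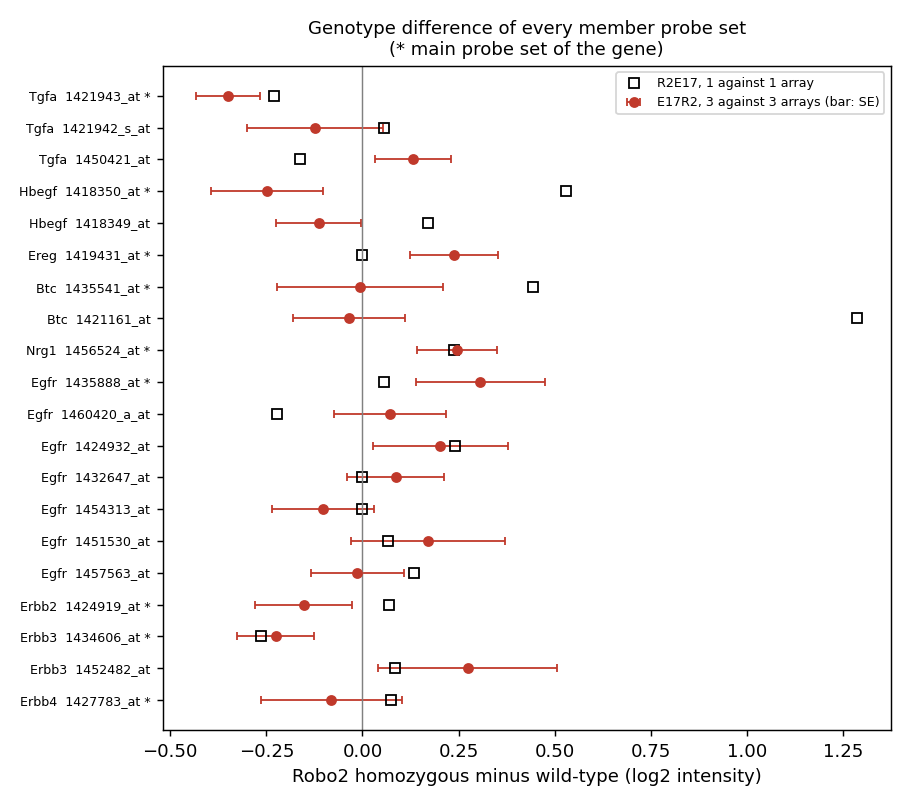
Robo2 homozygous minus wild-type difference in log2 intensity (x axis) for each of the 20 probe sets (y axis) in the 3 against 3 E17R2 arrays (red points; bars are SE from limma over all probe sets) and in the single R2E17 pair (open squares). Tgfa 1421943_at (-0.35) and Erbb3 1434606_at (-0.23) lie below 0 in both series, Nrg1 above 0 in both, and the main Hbegf probe set lies at -0.25 and 0.53.

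The other genes of the pathway were counted in lists, beside all genes, of which 9619 of 18193 (52.9%) were below 0 in the E17R2 comparison, with a median of -0.0092. The 10916 genes left after a filter on dim genes had a median of -0.037. Most list genes were bright: 14 of 17 feedback and turnover, 9 of 13 ERK-induced and 22 of 23 adaptor and effector genes exceeded the median gene on all 11 arrays. The share below 0 among genes of like level was not counted. Among the 9 members themselves 6 were below 0, with a median of -0.08. No gene of any list passed the adjusted threshold. In the list of ErbB feedback and turnover, which holds inhibitors such as the Sprouty genes and the ubiquitin ligases of the Cbl family, 16 of 17 genes were below 0, by a median of -0.05, and 4 of 17 had all homozygous arrays below all wild-type arrays, against 7.24% of all genes. Without homozygous replicate 9 it was 13 of 17, while 49.6% of all genes were below 0, and in the R2E17 pair 8 of 17, against 39.8% of all genes. The smallest p values in that list were those of Ptprj, a receptor phosphatase (-0.34 ± 0.13, SE), and Cblb (-0.21 ± 0.10), both at a limma adjusted p of 0.840. Without homozygous replicate 9 they were at -0.22 and -0.13. Of 13 genes induced through ERK, 8 were below 0, near the share of all genes, with a median of -0.14, and 3 of 13 had all homozygous arrays lower, against 7.24% of all genes. Leaving out homozygous replicate 9 gave 11 of 13 below 0, against 49.6% of all genes. The R2E17 pair had 5 of 13 below 0, against 39.8%. Dusp4, a phosphatase of ERK, was at -0.34 ± 0.16 (SE) and Ccnd1, which encodes cyclin D1, at -0.26 ± 0.12. Without homozygous replicate 9 these were -0.16 and -0.14. The R2E17 pair differed by 0.12 for Dusp4 and 0.03 for Ccnd1, the opposite sign.

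Genes that release the ligands showed both signs: 4 of 11 were below 0, with a median of 0.03. Adam17, the main protease for Tgfa and Hbegf precursors, differed by -0.19 ± 0.11 (SE) in E17R2 and by 0.39 in the R2E17 pair. Adam12, another membrane protease, differed by 0.35 ± 0.15 and 0.07. Without homozygous replicate 9 the E17R2 values were -0.09 for Adam17 and 0.18 for Adam12. Of 28 listed adaptors and effectors, 23 were measured and 14 were below 0, with a median of -0.03. Leaving out homozygous replicate 9 gave 19 of 23 below 0, against 49.6% of all genes. The R2E17 pair had 12 of 23 below 0, against 39.8%. The listed adaptors and effectors with the smallest p in E17R2 were Nras, which encodes a Ras protein (-0.16 ± 0.09, SE), and Grb7, an adaptor (-0.30 ± 0.20). Without homozygous replicate 9 they were at -0.09 and -0.07. Among 5 further ErbB ligands, Egf is known as a product of the thick ascending limb and distal tubule. It read 5.06, 5.15 and 5.28 in E17R2 wild-type and 5.20, 4.84 and 4.35 in homozygous arrays (-0.37 ± 0.21, SE; limma adjusted p = 0.840), and 7.04 and 6.84 in the R2E17 pair. Homozygous replicate 2 lay among the wild-type arrays, so the groups overlapped. Nrg3, another neuregulin, differed by 0.14 ± 0.15 (SE). Without homozygous replicate 9 Egf was at -0.15 and Nrg3 at 0.06.

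Marker lists of the nephron are given beside the members, and no gene of these lists passed the adjusted threshold in E17R2 either. Of 8 thick ascending limb and distal tubule genes 6 were below 0, with a median of -0.59. Without homozygous replicate 9 it was 8 of 8, with a median of -0.39. In the R2E17 pair it was 6 of 8, against 39.8% of all genes, with a median of -0.27. The mean of that list was 0.145 to 0.314 above the mean of the set in E17R2 wild-type and at -0.29 to -0.081 in homozygous arrays. For 8 proximal tubule genes the median was -0.74, with 7 below 0, or -0.39 without homozygous replicate 9, and in the R2E17 pair it was 0.59. For 12 collecting duct and ureteric bud genes the median was -0.20, or -0.02 without homozygous replicate 9, and 0.01 in the R2E17 pair. All 4 podocyte genes were below 0 in both series. Their median was -0.49, or -0.26 without homozygous replicate 9, and -0.20 in the R2E17 pair. For 5 nephron progenitor genes the medians were -0.11, 0.02 and 0.17 in the same order. Adrenal genes had a mean of 2.12 and 1.88 above the set in wild-type replicates 1 and 3, and of 3.60 in R2NB replicate 4. In E17R2 homozygous replicate 2 that mean was 0.36. It was -1.31 in wild-type replicate 7, and -1.33 and -1.72 in homozygous replicates 8 and 9. The part of such shifts in the values of Tgfa and Erbb3 was not tested.

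The second comparison set the R2NB arrays against the R2E17 homozygous array, which carry 1 genotype label and share a normalization. The single array was assumed to vary like the replicated groups. No member passed (0 of 9), and 2 of 18193 genes did (0.0110%). At an unadjusted p of 0.05 it was 0 of 9, against 3.14% of all genes. For Tgfa the R2NB arrays read 7.15, 7.02 and 7.02, all between the R2E17 homozygous (6.95) and wild-type (7.18) arrays. The difference from the homozygous array was 0.12 ± 0.10 (SE), with a 95% interval of -0.11 to 0.35. Erbb3 behaved alike, with 9.26, 9.16 and 9.33 in R2NB between 9.09 and 9.36, and a difference of 0.16 ± 0.13 (interval -0.13 to 0.44). Egfr read 8.22, 7.36 and 7.79 in R2NB, a wide spread around the 7.79 of the homozygous array, with an interval of the difference of -0.73 to 0.73. Hbegf read 9.15, 8.68 and 8.83, also on both sides of its homozygous array. The Btc difference of 0.27 ± 0.59 (SE; interval -1.07 to 1.62) turned to -0.27 without R2NB replicate 3. These intervals do not show that the groups were alike.

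**Figure D4:**
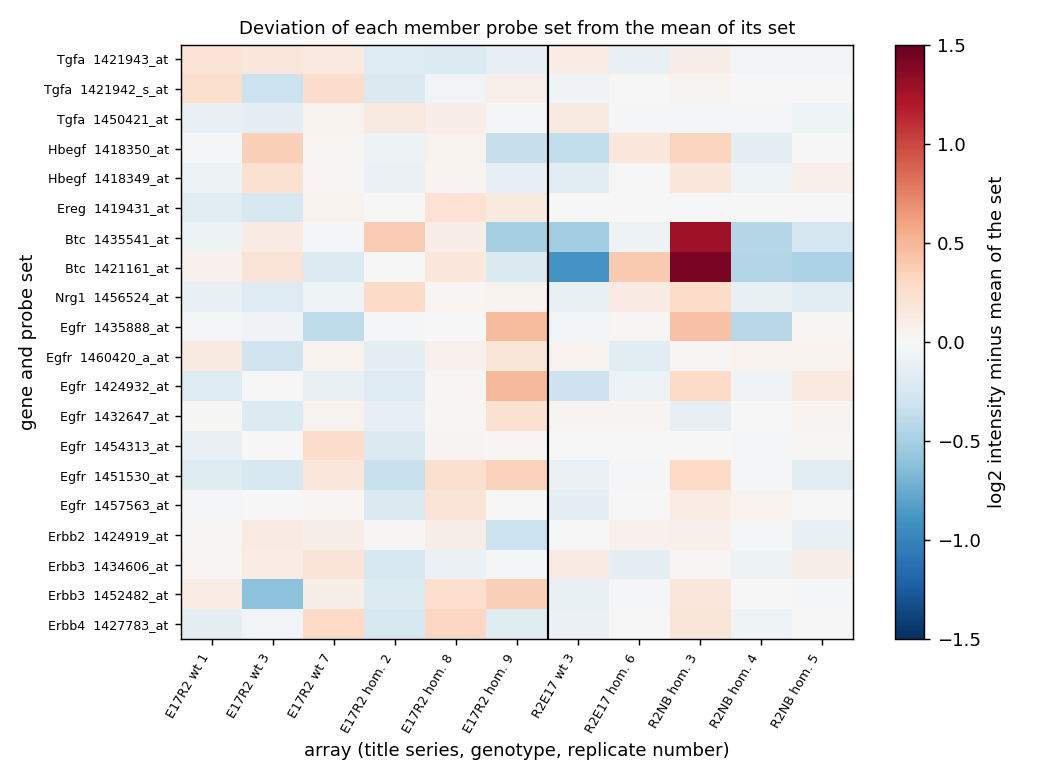
Deviation of log2 intensity from the mean of its own set (colour; red higher, blue lower) for each of the 20 probe sets (rows) on each of the 11 arrays (columns; wt, wild-type; hom., Robo2 homozygous; number, replicate), with a line between the sets. Both Btc probe sets are highest on R2NB hom. 3 (9.17 and 5.08), and the main Egfr probe set is highest of the E17R2 arrays on hom. 9 (7.64).

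R2NB replicate 3 was the highest of the 5 arrays for 6 of the 9 members, Hbegf, Btc, Nrg1, Egfr, Erbb2 and Erbb4, as it was for 25.8% of all genes. Apart from Btc the gap to the next array was at most 0.43, reached by Egfr. Homozygous replicate 9 of E17R2 was the lowest of the 6 arrays for 3 of 9 members (Hbegf, Btc and Erbb2), as for 32.3% of all genes, and the highest for 1 (Egfr), as for 20.6%.

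The last contrast set the 5 R2E17 and R2NB arrays against the 6 E17R2 arrays. Set and normalization cannot be told apart in it, so it was described and not tested. The median gene was 1.02 higher in the set of 5, and the shift depended on level: with genes in 10 classes by level, it was 0.475 in the dimmest and at most 1.18. Relative to the median gene, Btc was the farthest above, with means of 7.90 in the set of 5 and 5.38 in the set of 6 and a relative difference of 1.49. All 5 arrays lay above the 6 after the shift was taken off, and Btc exceeded 97.8% of the genes in its level class. It was not R2NB replicate 3 alone. With no shift taken off, the R2E17 wild-type array exceeded the E17R2 wild-type mean of Btc by 1.99, against the median gene's shift of 1.02. The 1.99 is thus not on the scale of the relative difference of 1.49. Egf, at 0.98, and Hbegf, at 0.69, were also above the shift, and the Hbegf arrays overlapped. Erbb3 (0.51) and Erbb2 (0.35) were somewhat above it, with arrays that did not overlap.

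Nrg1, by contrast, had the same mean in both sets, 3.19, and thus lay 1.02 below the shift of the median gene (-1.02) and 0.70 below that of its level class (-0.70). Its percentile ran from 6.74 to 11.2 in the set of 5 and from 14.7 to 20.4 in the set of 6, which do not overlap. Egfr (-0.41) and Tgfa (-0.19) were below the shift, with arrays that overlapped. Ereg (-0.54) and Erbb4 (-0.65) were below the median gene, but level with their own dim class (0.01 and -0.10). Of the 9 members, 2 were past 0.5 above with no overlap (Btc and Erbb3, against 11.4% of all genes) and 3 below (Ereg, Nrg1 and Erbb4, against 13.6%). With quantile normalization of the 11 arrays together, 3 of these 5 were no longer past 0.5: Erbb3 was at 0.38, Erbb4 at -0.02 and Ereg at 0.084. Btc (1.38) and Nrg1 (-0.68) stayed past it, and the shares of all genes were 9.73% above and 8.05% below. Nephron segment genes were also past 0.5 above the shift with no overlap, 7 of 8 in the proximal tubule and 6 of 8 in the thick ascending limb and distal tubule list. It was 6 of 12 collecting duct and ureteric bud genes, 1 of 4 podocyte and 0 of 5 nephron progenitor genes, against 11.4% of all genes. The part of these cells in the Btc, Egf and Hbegf values was not tested.

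**Figure D5:**
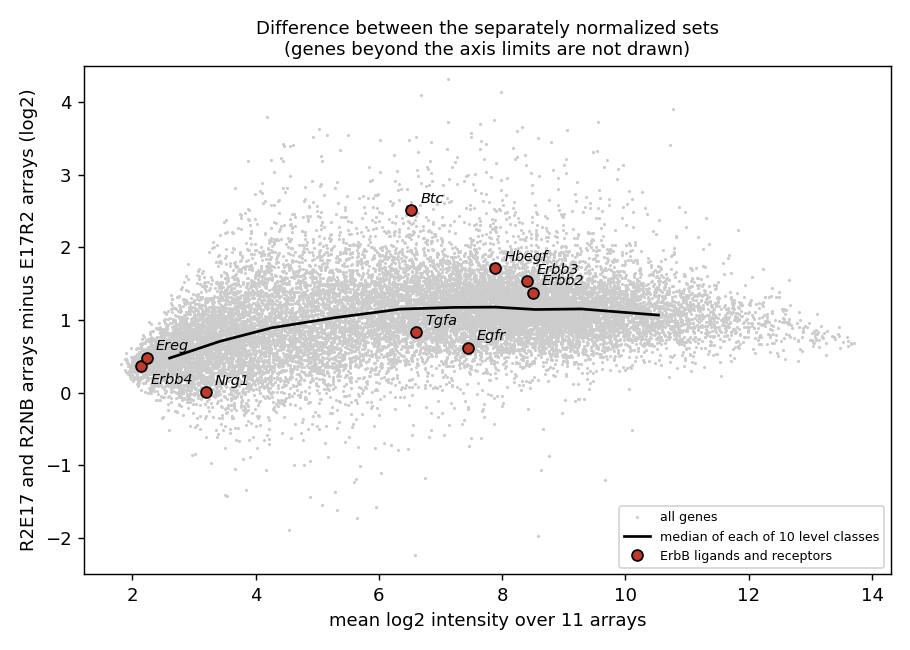
Difference in mean log2 intensity between the 5 R2E17 and R2NB arrays and the 6 E17R2 arrays (y axis) against the mean over 11 arrays (x axis), for all 18193 genes (grey), with the median of each of 10 level classes (line) and the 9 ErbB genes (red). Btc lies above the line (2.51 against a class median of 1.15), Nrg1 below it (0.0056 against 0.705).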

How the data were processed

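RNA of 11 kidney samples was hybridised as biotin-labelled cRNA to 1 array each, per the labels' protocols. RMA is the one tool in the submitters' processing notes, with no version; the intensity values the authors deposited are on a linear scale. Median and upper intensities were close within each of the 2 sets and differed between them, so the sets were taken as normalized apart, and the number of arrays limits the precision. Log2 was taken with no pseudocount and no filter. Of 45101 probe sets, 34945 had 1 symbol in the platform annotation, 932 several and 9160 none, leaving aside 64 controls. Symbols were updated by gene identifier with RefSeq (GRCm38.p6; 34741 matched), and each gene took its probe set of highest mean.

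Genes were tested with limma 3.58.1 (R 4.3.3, lmFit and eBayes, 2-sided, Benjamini-Hochberg over all genes): genotype in the 6 E17R2 arrays, and the R2NB contrast and the difference between series in all 11 arrays with 1 coefficient per group. SE of dimmer probe sets come from a fit over all probe sets. The code of the fits was run on simulated arrays with known shifts, each larger than the E17R2 difference of any member, and with genes drawn independently. That check does not cover smaller differences or shifts of many genes together, such as those of the smooth muscle list. Named were all members, Egf, the 2 genes of smallest p per list and the 3 most like Tgfa. Members, lists and tests were chosen with earlier results of these data known. The alternatives were leaving out arrays, other arrays in the fit, quantile normalization, centring, a filter on dim genes, averaged probe sets and eBayes settings.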

Additional observations from a re-analysis of the deposited data

How the results depend on the processing

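In E17R2 no alternative brought a member past the threshold; adjusted p values of Tgfa in limma ran from 0.552 to 0.971. Over all genes 0 passed under each alternative except leaving out 1 array, which gave 0 to 1 (1 without wild-type replicate 7). Tgfa, Hbegf, Egfr and Erbb2 kept their sign in E17R2 under every alternative run, and Ereg and Nrg1 under all but the filter on dim genes, which left them and Erbb4 without a value. Btc turned to 0.11 with 8 arrays and a series term and to 0.028 with centred arrays, and ran from -0.20 to 0.24 with 1 array left out. Erbb3 turned to 0.024 with averaged probe sets, and Erbb4 ran from -0.26 to 0.049 with 1 array left out. In the R2NB contrast the genes passing numbered 0 with 5 arrays, 1 with averaged probe sets, 6 with all probe sets as features (chosen after seeing the data) and 2 to 17 with 1 R2NB array left out, 17 being without replicate 3 and 7 without replicate 5, against 2. There Egfr turned from -0.0012 to 0.033 with quantile normalization, 0.026 with centred arrays, 0.027 with both R2E17 arrays as reference and 0.067 with averaged probe sets, and ran from -0.22 to 0.21 with 1 array left out. Hbegf turned to 0.17 with both R2E17 arrays, and with 1 array left out ran from -0.23 to 0.0082, Btc from -0.27 to 0.58 and Erbb4 from -0.029 to 0.095. The difference between series had 3 genes past the threshold, 23 with all probe sets and 2 to 3 with 1 array left out. There, with 1 array left out, Erbb3 ran from -0.0086 to 0.10 and Nrg1 from -0.072 to 0.054. In the set contrast Ereg turned to 0.084 with quantile normalization. The cause of these turns was not tested. No paired analysis was run. No pairing of arrays was taken from the labels, and the groups compared share fewer than 2 replicate numbers. Ereg, Erbb4 and Nrg1 were too dim to limit small differences.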
